A study of Mus musculus with 6 samples.

Results

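The integrin and laminin genes were followed in chromatin accessibility data from brown pre-adipocytes of the mouse, cells that can become brown fat cells. Members were the protein-coding genes whose symbols begin with Itga or Itgb, without the Itgb1bp and Itgb3bp genes, and the Lama, Lamb and Lamc genes with a number. The rule gave 39 of the 21887 coding genes of the gene table, namely 18 integrin alpha, 10 integrin beta, 5 laminin alpha, 3 laminin beta and 3 laminin gamma genes. The rule uses symbols and no measured value, but the members were chosen with earlier results of these data known. Open DNA was mapped by ATAC-seq, in which a transposase cuts and tags accessible DNA. All libraries carry the label WT and the cell line name BAT, with 3 libraries before (day 0) and 3 after 1 day (day 1) of brown adipocyte differentiation. The title of the series names RUNX1 and RUNX2 deletion, and samples with such a deletion were not analysed here. The labels give neither the age of the animals nor a separate culture for each replicate, so p-values reflect variation among libraries that could be technical alone.

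Integrins are cell surface receptors made of 1 alpha and 1 beta chain. They bind proteins of the extracellular matrix outside the cell and connect, through talin and kindlin, to the actin skeleton inside it. Laminins are secreted trimers of 1 alpha, 1 beta and 1 gamma chain that form the sheet of a basement membrane, which surrounds each mature fat cell. The alpha chain decides much of the ligand choice of an integrin. Alpha 1, 2, 10 and 11 bind collagens, alpha 3, 6 and 7 bind laminins, and alpha 5, v, 8 and IIb bind proteins with an RGD sequence such as fibronectin and vitronectin.

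Depth and peak number moved with the day. Day 0 libraries held 8127635 to 11011889 fragments and 39211 to 55511 peaks, and day 1 libraries 4919755 to 7302457 fragments and 12556 to 23274 peaks. Day 1 replicate 3 stood apart with the fewest peaks, 12556, although its 7302457 fragments exceeded the 4919755 and 5603667 of the other day 1 libraries. It also had the lowest median summit height in the 9136 regions called in every library, 13 fragments against 18 to 42.5 in the others. The main counts are therefore given also for equal lists, which hold the 12556 strongest peaks by q of each library, or without that library. Of 10 genes listed for brown pre-adipocytes and fibroblasts, 4, 3 and 3 had a gene-end peak in the day 0 libraries and 2, 3 and 0 in those of day 1. Ebf2, a regulator of brown fat precursors, had 16, 14 and 10 distal peaks at day 0 and 5, 8 and 4 at day 1, and the 10 genes together had 78, 61 and 60 and then 19, 28 and 10. The 8 listed genes of mature brown adipocytes had 30, 18 and 16 distal peaks and then 9, 10 and 5, with gene-end peaks at 3, 3 and 2 genes and then 1, 2 and 2. Ucp1, the heat-producing protein of that list, had no peak. Of 6 pericyte and smooth muscle markers, 5, 1 and 2 had a gene-end peak at day 0 and 0, 1 and 0 at day 1, so in day 0 replicate 1 their share was above that of the pre-adipocyte list. The counts were 2, 2 and 2 and then 2, 1 and 1 of 5 Schwann cell markers, 2, 1 and 0 and then 0 in each of 6 skeletal muscle markers, and 1, 1 and 1 and then 0, 1 and 0 of 8 endothelial markers. No gene of an epithelial list of 8 had a gene-end peak in any library. That list nevertheless had 23, 16 and 13 distal peaks at day 0 and 6, 4 and 3 at day 1. Distal peaks numbered 27, 20 and 17 and then 9, 4 and 0 for the endothelial list. The pericyte and smooth muscle list had 23, 23 and 16 and then 3, 6 and 1. Schwann cell markers had 14, 10 and 9 and then 5, 7 and 2, and skeletal muscle markers 12, 7 and 6 and then 1, 2 and 0. Open chromatin does not measure RNA, and expression was not analysed here.

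Each peak was counted for the coding gene whose annotated end lay closest to its summit, up to 100 kb away. A gene-end peak lies within 1 kb of either end of the gene, and a distal peak farther away, inside or outside the gene body. Of the 39 genes, 34 had at least 1 peak in some library, where 71.0% of all coding genes did. The genes with no peak were Itgae, Itgal, Itgax, Itgb2l and Lama3. Itgae, Itgal and Itgax encode alpha chains of leukocyte integrins, and Lama3 encodes an alpha chain of epithelial laminins. Lama3 had 12 peaks in its body that lay over 100 kb from its ends and so counted for no gene. Likewise, 21 of the 31 peaks inside Lama2 lay too far from its ends, 13 of the 23 inside Itga1 counted for the nested gene Pelo, and the 6 inside Itgb4 counted for Galk1. The members were longer than most genes, with a median length of 62.5 kb against 17.2 kb over all coding genes.

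Open chromatin at the gene ends was present in a part of the family and was most constant at 6 members with a gene-end peak in all 6 libraries, among them Itgb1, Itga5, Itga1, Itgb8 and Lamc1. Itgb1 encodes the beta chain that pairs with the most alpha chains, Itga5 the alpha chain of the fibronectin receptor, and Itga1 that of a collagen receptor. Lamc1 encodes the gamma chain of most laminins. These 6 of 39 genes compare with 23.5% of all coding genes. A gene-end peak occurred in any library at 23 members, where 50.2% of coding genes had one. In all 3 day 0 libraries it occurred at 13 members, against 36.2% of coding genes, and in all 3 day 1 libraries at 6, against 24.4%. Without day 1 replicate 3 the last count was 10. Equal lists gave 6 members at day 0 and 5 at day 1, with backgrounds of 17.6% and 21.3%, and 3 in all 6 lists (15.4% of coding genes) among 12 with any (36.6%). Per library, 23, 16 and 15 members had a gene-end peak at day 0 and 11, 16 and 7 at day 1, so that the days overlapped. Equal lists gave 7, 7 and 7 members and then 7, 8 and 7.

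**Figure D1:**
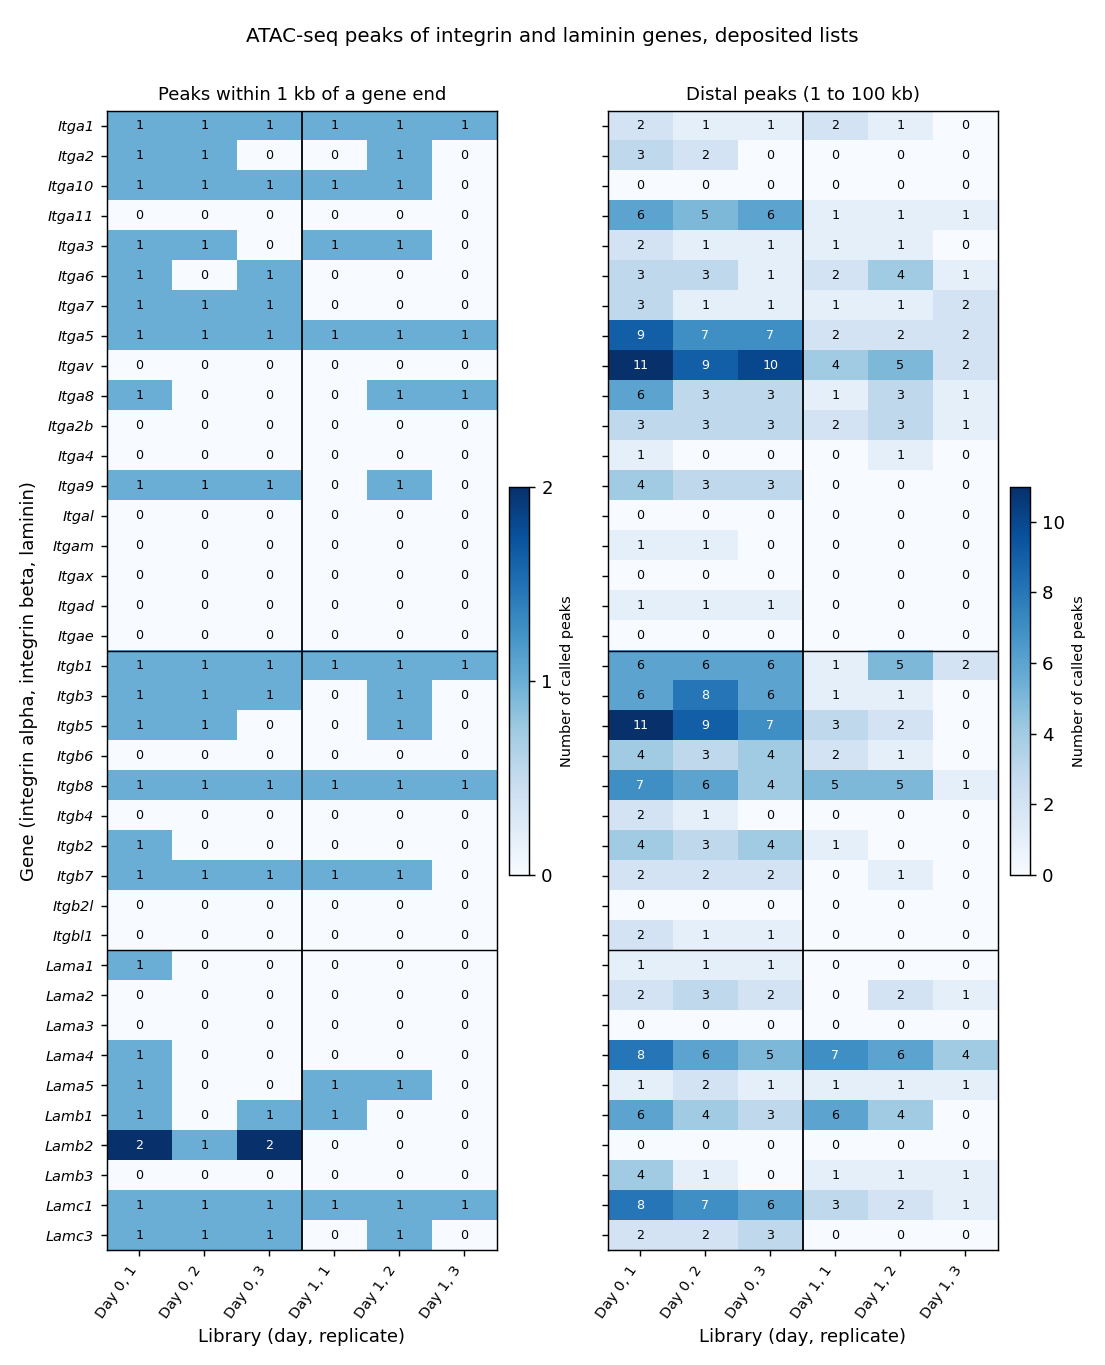
Number of called peaks of the integrin and laminin genes named in the text (rows) in each of the 6 libraries (columns), within 1 kb of a gene end (left) and distal, 1 to 100 kb away (right), in the deposited lists. Itgav and Itgb5 reach 11 distal peaks at day 0, and Lama4 has 7, 6 and 4 at day 1.

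RefSeq promoters, which run from 250 bases before to 50 after a start site on GRCm38.p6, the assembly that mm10 names, were found for 25 of the 39 members, with 28 start sites. A peak lay over 12 of the 28 in some library. Over 4 of them it did so in all 6 libraries, and these promoters are printed to show which start sites were open on both days. Capitals mark matches on either strand to 5 sets of letters, TGTGGT for RUNX, TGANTCA for AP-1, GGAATG for TEAD, CCAAT for NF-Y and GGGCGG for the GC box, with no overlap between matches in these promoters.
Itgb1 promoter, chr8:128685404-128685703, plus strand: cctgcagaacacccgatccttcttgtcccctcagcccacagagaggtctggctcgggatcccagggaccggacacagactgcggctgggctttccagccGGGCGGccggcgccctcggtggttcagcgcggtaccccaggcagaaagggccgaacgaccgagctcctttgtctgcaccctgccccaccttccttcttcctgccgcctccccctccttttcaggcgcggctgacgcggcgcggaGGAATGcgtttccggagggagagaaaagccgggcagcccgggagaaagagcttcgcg
Itga5 promoter, chr15:103366742-103367041, minus strand: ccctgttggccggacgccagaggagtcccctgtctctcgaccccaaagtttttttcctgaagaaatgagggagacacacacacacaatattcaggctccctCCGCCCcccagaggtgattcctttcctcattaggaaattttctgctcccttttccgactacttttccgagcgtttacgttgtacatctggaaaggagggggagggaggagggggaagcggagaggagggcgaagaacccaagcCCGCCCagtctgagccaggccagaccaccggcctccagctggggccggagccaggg
Itgav promoter, chr2:83724147-83724446, plus strand: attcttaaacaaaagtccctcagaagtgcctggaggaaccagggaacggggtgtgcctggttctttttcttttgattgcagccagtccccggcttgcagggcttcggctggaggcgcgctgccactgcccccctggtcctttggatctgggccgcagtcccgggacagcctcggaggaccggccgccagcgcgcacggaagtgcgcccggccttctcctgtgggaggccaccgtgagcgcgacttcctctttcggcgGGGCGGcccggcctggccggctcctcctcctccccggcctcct
Itga1 promoter, chr13:115101915-115102214, minus strand: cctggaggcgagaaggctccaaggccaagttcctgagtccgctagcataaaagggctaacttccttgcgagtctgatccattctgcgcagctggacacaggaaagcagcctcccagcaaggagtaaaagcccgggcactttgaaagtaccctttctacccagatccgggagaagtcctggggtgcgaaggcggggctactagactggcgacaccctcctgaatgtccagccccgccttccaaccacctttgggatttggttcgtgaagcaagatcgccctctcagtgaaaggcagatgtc
The Itgb1 promoter held 1 GC box match followed by 1 TEAD match, the Itga5 promoter 2 GC box matches, the Itgav promoter 1, and the Itga1 promoter none. Over the 28 member promoters, 13 held the GC box letters, 5 NF-Y, 3 RUNX, 3 AP-1 and 3 TEAD. Of all 21263 coding promoters of that length, 46.2% held the GC box letters, 38.2% NF-Y, 15.0% RUNX, 6.99% AP-1 and 13.6% TEAD. The GC box was added to the search after the first 4 motifs had been searched. Itgav shows how the distance rule works, because its region from 83723929 to 83724810 on chromosome 2 covers the start site at 83724397 but lies 2.04 kb from the outer annotated end, and so counts as distal.

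Gene-end peaks present in all 3 day 0 libraries and in at most 1 of day 1 were found at 5 members, Lamb2, Itga7, Lamc3, Itga9 and Itgb3, where 5.98% of coding genes showed this pattern. The reverse occurred at 0 members, where 0.302% of coding genes did. Lamb2 and Itga7 had no day 1 peak there at all, a pattern of 2.41% of coding genes. In equal lists the day 0 pattern with no day 1 peak held for 1 member, Itga10 (0.283% of coding genes). That with at most 1 held for 2, Itga10 and Lamc3 (0.731%), and the reverse for 2 (3.22%). In those lists Lamb2 kept a gene-end peak in day 0 replicate 3 alone and Itgb3 in day 1 replicate 2 alone. Itga7 and Itga9 had no gene-end peak there. Lamb2 encodes the laminin beta 2 chain, and its start site lay under a peak of 21, 14 and 19 fragments at day 0 and no called peak at day 1. This promoter is printed as the member start site that was open at day 0 only in the deposited lists, and it holds none of the 5 motifs.
Lamb2 promoter, chr9:108479612-108479911, plus strand: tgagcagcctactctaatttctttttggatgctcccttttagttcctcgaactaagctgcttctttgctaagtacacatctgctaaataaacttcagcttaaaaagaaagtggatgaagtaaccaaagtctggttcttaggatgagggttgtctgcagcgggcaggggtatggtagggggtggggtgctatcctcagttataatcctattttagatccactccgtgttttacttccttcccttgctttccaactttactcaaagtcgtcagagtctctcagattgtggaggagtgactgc
Its GC content was 44.0%, against a median of 56.3% over all coding promoters, 60.0% over the member promoters with a peak and 54.8% over those without. Itga7, the alpha chain of a laminin receptor of muscle, had 16, 20 and 16 fragments at the summit at day 0 on chromosome 10 from 128933735 to 128934209, and no called peak at day 1. Lamc3, the gamma 3 chain of laminin, had 49, 32 and 29 fragments at day 0 and 14 in day 1 replicate 2 alone. This region lay at the higher-coordinate end of Lamc3, 1.80 kb from the nearest end of Aif1l, and no Lamc3 promoter was available to compare. Itgb3, the partner of alpha v and of alpha IIb, had 25, 18 and 10 at day 0 and 11 in the same day 1 library. Itga9, which binds tenascin-C and other ligands, had 13, 10 and 6 at day 0 and 7 in that library. The heights are raw fragment numbers, and the day 1 libraries were shallower.

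Most peaks of these genes were distal. The day 0 libraries held 135, 110 and 96 of them and the day 1 libraries 49, 53 and 21, a mean of 114 ± 19.8 against 41 ± 17.4 (SD, n = 3 each) and a ratio of 2.77, with days that did not overlap. Over all coding genes the ratio was 3.08. In equal lists the members had 29, 29 and 26 distal peaks at day 0 and 24, 16 and 21 at day 1, a ratio of 1.38, where all genes gave 1.15. With 3 libraries a day, the smallest two-sided p of an exact permutation test is 0.1, so these counts were not called by a test. Among a library's member peaks, 84.9%, 87.3% and 85.7% were distal at day 0 and 81.7%, 76.8% and 75.0% at day 1. The shares over all coding genes were 75.8%, 71.7% and 70.8% and then 56.3%, 59.0% and 46.2%. Of the 32 members with any distal peak, 16 had more of them in every day 0 library than in every day 1 library, where 38.3% of coding genes with a distal peak and 21.5% of all coding genes did. The reverse held for 0 members and 0.155% of coding genes.

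The counts by gene that follow are those of the deposited lists unless equal lists are named. Among the RGD-binding alpha chains, Itgav and Itga5 had the most distal peaks. Itgav, whose product pairs with several beta chains, had 11, 9 and 10 at day 0 and 4, 5 and 2 at day 1. Itga5 had 9, 7 and 7 at day 0 and 2 in each day 1 library. Both genes had more in every day 0 library of the deposited lists. Itga8, a partner of beta 1, had 6, 3 and 3 against 1, 3 and 1, and Itga2b, known from platelets, had 3, 3 and 3 against 2, 3 and 1, so that their days overlapped. Itga4 had 1, 0 and 0 against 0, 1 and 0, and Itga9 had 4, 3 and 3 against 0 in each day 1 library. In equal lists Itgav had 3, 3 and 4 at day 0 and 3, 2 and 2 at day 1. Itga5 had 2, 2 and 1 and then 2, 2 and 2 there, so that the days of both genes overlapped. Itga8 had 1, 1 and 0 against 1, 2 and 1 in equal lists, Itga2b 1, 2 and 2 against 1, 1 and 1, and Itga4 and Itga9 none.

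Of the beta chains that pair with alpha v, Itgb5, Itgb3 and Itgb6 had more distal peaks in every day 0 library. Itgb5, a vitronectin receptor chain, had 11, 9 and 7 distal peaks at day 0 and 3, 2 and 0 at day 1. Itgb3 had 6, 8 and 6 against 1, 1 and 0, and Itgb6, best known from epithelia, had 4, 3 and 4 against 2, 1 and 0. Itgb8 had 7, 6 and 4 against 5, 5 and 1, so that its days overlapped. Itgb1 had 6 in each day 0 library against 1, 5 and 2, and so had more in every day 0 library as well. Itgb4, the hemidesmosome chain, had 2, 1 and 0 against 0 in each day 1 library. Itgbl1, a secreted protein related to the beta chains, had 2, 1 and 1 against 0 in each. In equal lists Itgb5 had 3, 3 and 2 against 1, 0 and 0, and its days did not overlap. The days of Itgb3 (2, 2 and 0 against 1, 0 and 0) and Itgb6 (2, 1 and 2 against 2, 0 and 0) overlapped there. So did those of Itgb1 (4, 3 and 2 against 1, 2 and 2).

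The collagen-binding alpha chains together had 11, 8 and 7 distal peaks at day 0 and 3, 2 and 1 at day 1. Itga11, a collagen receptor chain of fibroblasts, had 6, 5 and 6 and then 1 in each (equal lists 1, 1 and 1, then 1, 0 and 1). Itga2 had 3, 2 and 0 against 0 in each, Itga1 had 2, 1 and 1 against 2, 1 and 0, and Itga10 had none but a gene-end peak in 5 libraries. For the laminin receptors the days overlapped in every case. Itga6 had 3, 3 and 1 against 2, 4 and 1, Itga7 had 3, 1 and 1 against 1, 1 and 2, and Itga3 had 2, 1 and 1 against 1, 1 and 0. The 3 genes together held 8, 5 and 3 at day 0, then 4, 6 and 3 at day 1.

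Leukocyte integrin genes had few distal peaks at day 1. Itgb2, the beta chain of the leukocyte integrins, had 4, 3 and 4 distal peaks at day 0 and 1, 0 and 0 at day 1, and Itgb7, a lymphocyte chain, had 2, 2 and 2 against 0, 1 and 0. At its gene end Itgb7 had a peak in every library but day 1 replicate 3, with summits of 36, 28 and 20 fragments and then 17 and 17. Itgad had 1 in each day 0 library and Itgam had 1, 1 and 0, with 0 at day 1 for both. In equal lists Itgb2 had 2, 2 and 2 distal peaks against 1, 0 and 0, and Itgb7 had 0, 0 and 1 against 0, 1 and 0. The 10 listed leukocyte markers had 11, 6 and 7 distal peaks at day 0 and 3, 2 and 1 at day 1, with gene-end peaks at 4, 3 and 3 genes and then 1, 1 and 0. Ptprc, the pan-leukocyte CD45, had no gene-end peak in any library. Whether other cells contributed to these peaks was not tested.

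Distal counts varied among the laminin genes. Lama4, whose chain is found in fat and in vessel walls, had 8, 6 and 5 distal peaks at day 0 and 7, 6 and 4 at day 1, and its days overlapped, although none of its regions was called in all 6 libraries. Lamb1, the common beta chain, had 6, 4 and 3 against 6, 4 and 0, and Lama2, the chain of muscle and nerve laminins, had 2, 3 and 2 against 0, 2 and 1. In the deposited lists Lamc1 by contrast had 8, 7 and 6 at day 0 and 3, 2 and 1 at day 1. Lamc3 had 2, 2 and 3 against 0 in each. Lama1 had 1 in each day 0 library and 0 at day 1. Lama5 had 1, 2 and 1 against 1, 1 and 1, Lamb3 had 4, 1 and 0 against 1, 1 and 1, and Lamb2 had none. The 5 alpha genes together had 12, 12 and 9 against 8, 9 and 6. In equal lists Lamc1 had 2, 1 and 1 on both days, so the contrast was absent there. Lamc3 had 0, 0 and 1 against 0 in each, Lama4 1, 1 and 0 against 0, 0 and 4, and Lamb1 0, 1 and 0 against 1, 1 and 0. Differences between laminin genes were not tested.

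Peaks of the 6 libraries that overlapped were merged into 207 member regions, 182 distal and 25 at gene ends, and 66.7% of them lay inside the gene against 51.5% over all coding genes. A day 0 only region was called in all 3 day 0 libraries and in 0 of day 1, and a day 1 only region the other way round. In the deposited lists 42 member regions at 23 genes were day 0 only, 20.3% of 207, where 16.6% of all assigned regions were. Day 1 only were 5 regions at 4 genes, where 0.589% of all were, and 12 were called in all 6 libraries, where 14.7% of all were. Without day 1 replicate 3 the day 1 only count was 10. In equal lists 10 of 73 member regions were day 0 only and 7 day 1 only, with backgrounds of 8.05% and 5.72%, and 6 were in all 6 lists, against 24.5%. These backgrounds pool gene-end and distal regions, and 61 of the 73 member regions were distal, against 13117 of 21089 over all. Among distal regions of equal lists, 14.8% of member regions and 12.5% of all were day 0 only. Day 1 only were 8.20% and 6.45%, and in all 6 lists 4.92% and 11.6%. Equal lists of 12556 peaks drawn without day 1 replicate 3 gave 11 and 8, and lists lengthened to the shortest one left gave 13 and 17. Of the 42 day 0 only regions of the deposited lists, 4 were day 0 only in equal lists as well, among them those of Lamc1, Itgb5 and Itga11 given next.

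**Figure D2:**
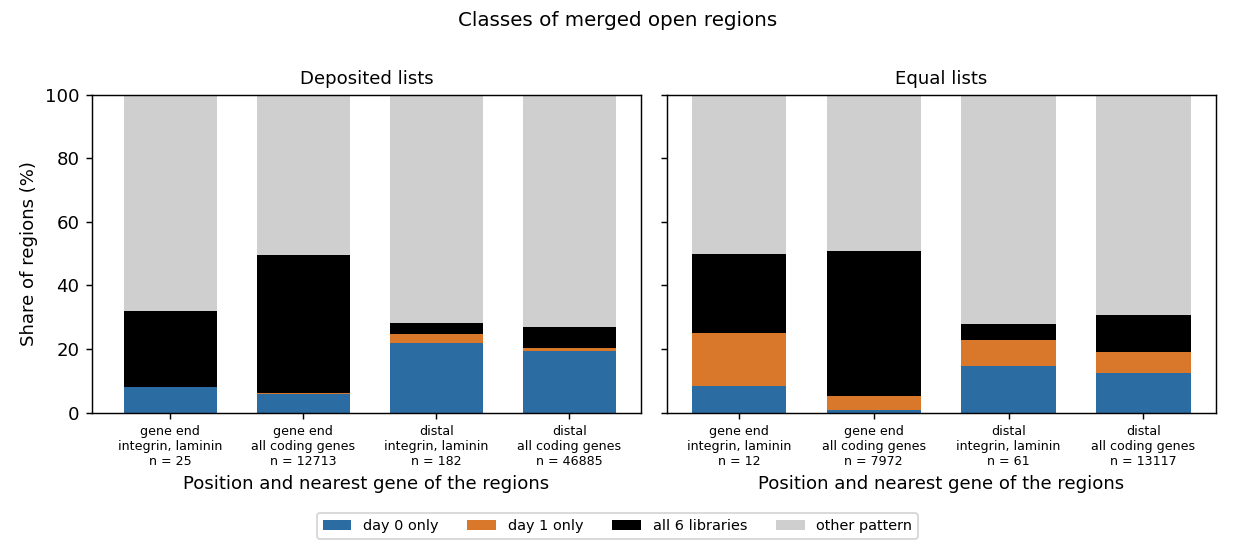
Share of merged regions (%) called on day 0 only, day 1 only, in all 6 libraries or in another pattern, for gene-end and distal regions of the integrin and laminin genes and of all coding genes, in deposited (left) and equal lists (right). Among distal regions of the deposited lists 22.0% of the member regions and 19.5% of all were day 0 only.

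The strongest day 0 only regions by the authors' fold enrichment lay inside Lamc1 and Itgb5. Fold enrichment is the ratio of a peak's height to the local background of its own library. The Lamc1 region, on chromosome 1 from 153300415 to 153300860 and 32.2 kb from the gene's nearest end, had 16.8, 12.5 and 14.7, a mean of 14.7 ± 2.13 (SD, n = 3), with summits of 56, 33 and 32 fragments. The Itgb5 region, on chromosome 16 from 33889057 to 33889424, had 10.7, 11.6 and 17.1 (13.1 ± 3.46, SD, n = 3), with summits of 50, 44 and 53 fragments. Neither had a called peak in any day 1 library.

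A region 52.9 kb outside Itga11, on chromosome 9 from 62624553 to 62625246, had fold enrichments of 10.6, 9.999 and 13.3. It stayed day 0 only in equal lists. An Itgb3 region, on chromosome 11 from 104640987 to 104641215, spread more widely, with 17.3, 12.3 and 7.05. Others of the 12 strongest lay at Itga8 with 2 regions and at Lamc1, Lamc3, Itgb2, Itga9 and Itgb5 with 1 each, with means from 9.08 to 10.8.

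Day 1 libraries were shallower, so the height to look for there was computed. If the 42 day 0 only regions had kept their height relative to the library's median, 7 of them (16.7%) would have reached the median height of called peaks in all 3 day 1 libraries, against 7.25% of the day 0 only regions of all genes. The expected median heights were 9.91, 12.1 and 7.16 fragments in the day 1 libraries, where the median called peak had 12 in each and the lowest called peak 4, 4 and 5. The part of depth in these absences was not tested.

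Of the 5 day 1 only regions, 4 lay in laminin genes. Lama5, a chain of many adult basement membranes, had one 20.8 kb inside the gene on chromosome 2 from 180197049 to 180197286, with summits of 13, 16 and 13 fragments. Lamb3, a beta chain of epithelial laminins, had one on chromosome 1 from 193310287 to 193310943 with 18, 19 and 9. Lama4 had both others, on chromosome 10 from 39003114 to 39003761 with 4, 10 and 8 fragments and from 39017828 to 39018681 with 8, 10 and 10. The remaining region lay 35.4 kb outside Itga6, the alpha chain of laminin receptors, on chromosome 2 from 71751358 to 71751650, with 13, 20 and 8. The Lama5, Lamb3 and Itga6 regions were day 1 only in equal lists too, and the Lama4 regions were not.

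**Figure D3:**
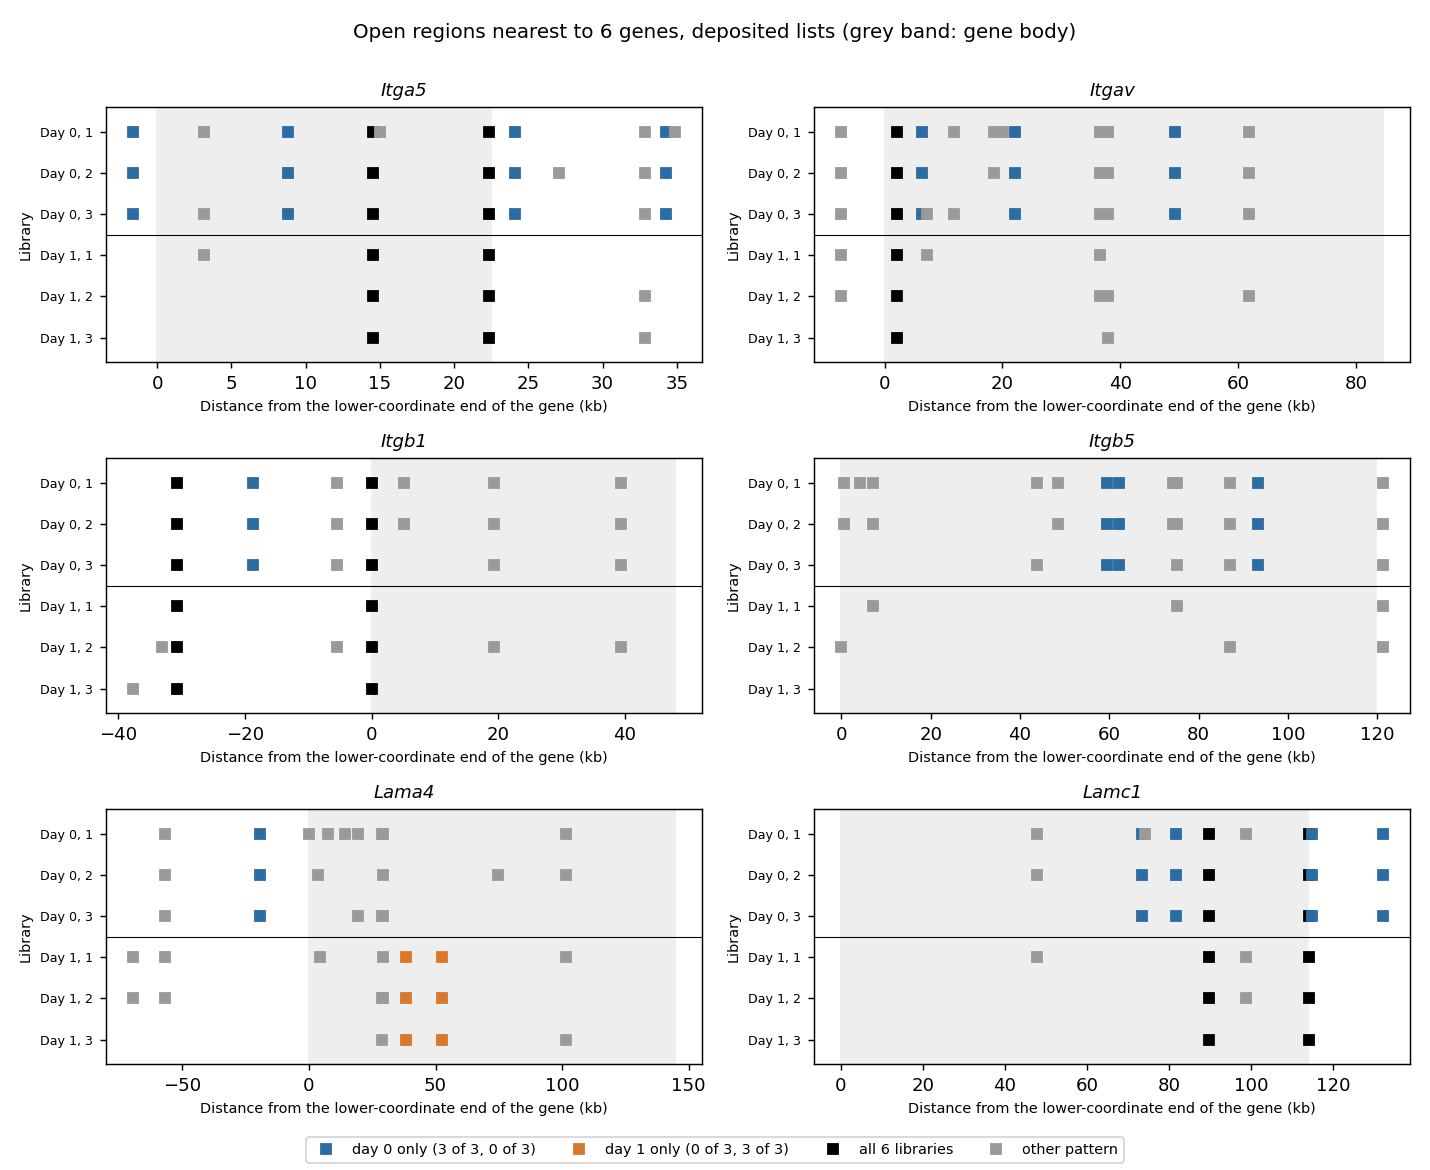
Regions nearest to 6 genes, plotted by distance (kb) from the lower-coordinate end of the gene, with each library in a row and the gene body as a grey band. At Lama4 both day 1 only regions lie inside the gene, and at Itga5 the regions at 14.6 and 22.4 kb are called in all 6 libraries.

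Equal lists added regions whose rank fell although a weaker peak was still called. Lama2 had a region on chromosome 10 from 27063480 to 27064072 with fold enrichments of 17.6, 13.7 and 16.0 at day 0 and 5.64 in day 1 replicate 2 alone. A region 5.53 kb from Itgb1, on chromosome 8 from 128679869 to 128680347, had 16.4, 13.9 and 11.9 and then 5.43 in the same library. An Itgav region inside the gene, from 83758666 to 83759170, had 10.4, 7.97 and 10.8 at day 0 and 5.29 and 4.49 in day 1 replicates 1 and 2. Other such regions lay at Itga6, Itgb5 and the far end of Itga10. Rising ranks were found at Lamc1 (the gene end and a region in the body) and in Itga7, on chromosome 10 from 128939019 to 128939387, with fold enrichments of 7.15, 9.60 and 7.85 at day 1 and 6.15 in day 0 replicate 1 alone.

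Summit height was compared in the 12 member regions called in all 6 libraries, which lie at 8 genes. Height was divided by the library's median over the 9136 shared regions, and log2 values were tested with limma across all 9136, with Benjamini-Hochberg adjustment and a threshold of 0.05. A region had to be called in every library to enter, so regions lost at day 1 are not among them. At day 1, 3 member regions were higher, where 7.73% of all shared regions were, and 2 were lower, where 6.88% were. By position, 2 of the 6 gene-end member regions were higher and 0 lower, and 1 of the 6 distal ones was higher and 2 lower. Over all genes, 251 of 5539 shared gene-end regions were higher and 95 lower. Of the other 3597 shared regions, 455 were higher and 534 lower. The median log2 change was 0.40 over the 6 gene-end member regions and -0.54 over the 6 distal ones, against 0.08 and 0.0014 over all shared regions.

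Itga5 had the lowest adjusted p of these regions. Its region in the gene body, 7.95 kb from the end (chromosome 15, 103358501 to 103358985), reached relative heights of 1.98, 2.06 and 2.58 at day 0 and 1.11, 0.864 and 1.00 at day 1. The days did not overlap, and the log2 change was -1.15 (SE 0.182, limma adjusted p = 4.45e-06). At the Itga5 gene end, over the promoter printed above, the heights were 1.46, 1.22 and 1.29 and then 1.67, 1.64 and 1.46, a log2 change of 0.27 (limma adjusted p = 0.364, 95% interval -0.09 to 0.63). Only the region in the body was called, and the difference between the 2 changes was not tested.

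At Itgb1 a distal region was called and the gene end was not. The region 30.8 kb outside the gene, on chromosome 8 from 128654047 to 128655082, fell from 1.34, 1.5 and 1.5 to 0.889, 0.818 and 0.769, a log2 change of -0.81 (SE 0.201, limma adjusted p = 0.00315). Its gene end had 1.32, 1.41 and 1.67 at day 0 and 1.33, 1.32 and 1.31 at day 1, a log2 change of -0.14 (limma adjusted p = 0.684, 95% interval -0.51 to 0.22). With fold enrichment in place of height, the outer region had an adjusted p of 0.212.

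Among the regions that rose, a Lamc1 region in the gene body, on chromosome 1 from 153308354 to 153309322, went from 0.541, 0.406 and 0.417 to 0.889, 0.773 and 1.00, a log2 change of 0.97 (SE 0.258, limma adjusted p = 0.00617). The Itga1 gene end, on chromosome 13 from 115101489 to 115102395, went from 1.44, 1.66 and 1.21 to 2.17, 2.14 and 2.54, a log2 change of 0.68 (SE 0.17, limma adjusted p = 0.00348). In both regions every day 1 library lay above every day 0 library. The Itga1 call was lost with fold enrichment (limma adjusted p = 0.147) and without day 0 replicate 3 (0.0504). Lamc1 thus held both a region that rose and regions called on day 0 only.

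**Figure D4:**
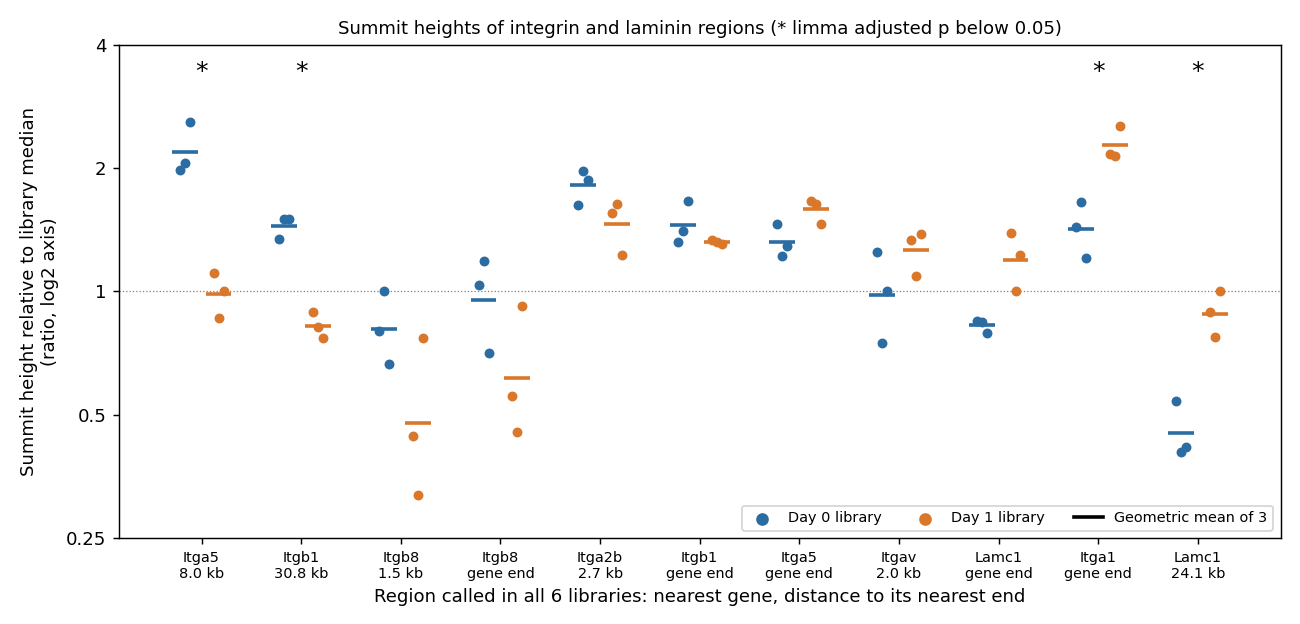
Summit height relative to the library's median (log2 axis) in regions of the named integrin and laminin genes called in all 6 libraries, with a point for each library and a line at the geometric mean of each day. Asterisks mark regions with a limma adjusted p below 0.05, with Itga5 at 8.0 kb and Itgb1 at 30.8 kb lower at day 1.

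The other 7 regions did not pass. The Lamc1 gene end had a log2 change of 0.53 (limma adjusted p = 0.0887), Itgav over its start site 0.37 (0.261) and Itga2b -0.31 (0.252). Itgb8, a receptor chain that activates TGF-beta, had -0.76 in its body (0.057) and -0.63 at its gene end (0.0958). When heights were scaled to the library's fragment total, none of the 5 calls held, with adjusted p from 0.195 to 1.00 and the same directions, and the median over all shared regions moved from 0.06 to -0.15. In that scaling 30 regions of all genes were higher and 48 lower, against 706 and 629.

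Without day 1 replicate 3, 12469 regions were called in the other 5 libraries, of which 23 belonged to members. Of these, 3 were higher and 10 lower at day 1, with backgrounds of 9.08% and 9.15%, so that the lower count rested on whether that library was used. These backgrounds pool all positions, and 8 of the 10 lower member regions were distal. The largest fall was that of the Itgav region from 83758666, with a log2 change of -1.52 (limma adjusted p = 2.46e-05). Lama4 fell at a region 57.0 kb outside the gene by 1.13 (limma adjusted p = 0.00509) and inside it by 0.86 (0.0293). The Itga10 gene end fell by 0.96 (0.0119), both Itgb8 regions by 1.01 and 0.82, and Itgb6 in its body by 0.83 (0.0233). A further Itgav region outside the gene fell by 0.73 (0.0222). Itga5 and Itgb1 fell here as well, by 1.06 and 0.66, and the regions of Lamc1 and Itga1 were among the 3 higher ones.

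The wider adhesion machinery was read from a list of 46 genes for integrin adaptors, matrix ligands and other basement membrane proteins. It had 287, 240 and 211 distal peaks at day 0 and 88, 99 and 44 at day 1. The ratio was 3.19, against 3.08 over all coding genes. In the deposited lists 86 of 411 regions were day 0 only (20.9%) and 1 day 1 only (0.243%), beside the 16.6% and 0.589% above. Equal lists gave 18 of 145 regions day 0 only (12.4%) and 8 day 1 only (5.52%), with backgrounds of 8.05% and 5.72%. These backgrounds pool gene-end and distal regions and were not matched to the positions of the list's regions. The genes with the most day 0 only regions in the deposited lists were Cd47 and Tns3 with 7 each, Col4a2 and Ptk2 with 6 each, and Tln2 with 5. Cd47 encodes an integrin-associated protein, Tns3 a tensin, Col4a2 a collagen IV chain, Ptk2 focal adhesion kinase and Tln2 a talin. By summit height 2 of its 38 shared regions were higher and 8 lower, where 7.73% and 6.88% of all shared regions, pooled over positions, were. The median log2 change was -0.02 against 0.06 over all. Named after their values were seen, the lower regions with the smallest adjusted p were distal regions nearest to Sdc2, a syndecan, and Vcl, vinculin. The Sdc2 region, 19373 bp from the nearest end, had -1.39 (limma adjusted p = 1.5e-05). The Vcl region, 37328 bp away, had -1.21 (limma adjusted p = 6.53e-05). At the gene ends Sdc2 had -0.55 (limma adjusted p = 0.00945) and Vcl -0.03 (limma adjusted p = 0.95). The gene end of Fn1, fibronectin, had -0.78 (limma adjusted p = 0.0134), and a region nearest to Hspg2, perlecan, rose by 1.09 (limma adjusted p = 0.00146).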

How the data were processed

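Peaks were called in each of the 6 libraries, separately, with MACS2 2.2.7.1 on paired-end fragments, without a control, at a q cutoff of 0.05, with a local background of 10000 bp, per the file headers. The submitters' processing notes also name mm10 and, without roles, HOMER 4.11, DiffBind 3.8.4, deepTools 3.5.1, SAMtools 1.15.1, Bowtie2 2.4.4 and Trim Galore 0.6.7. The deposited pileup is a signal, the whole number of fragments at the summit, not scaled to depth. The −log10 columns of the authors, for p and for q, set it against the local background, and the authors' fold enrichment is the ratio to that background. The deposited length column is the peak's width in bp. No read counts per region were used.

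The members and gene lists were chosen with earlier results of these data known, and the roles of members were written after the data were seen. Peaks were assigned by summit to the coding gene of GRCm38.p6 with the nearest end, and the gene table gives no strand or exons, so exon, intron and UTR positions are not given. Peaks overlapping by at least 1 bp were merged. Regions that entered the height test had to be called in all 6 libraries. Heights were fitted in limma 3.58.1 (R 4.3.3) with a mean trend over 9136 regions and tested on simulated data. Counts were made with Python 3.11.15, pandas 2.3.3 and numpy 2.4.6. Every member with a peak was named with its counts, except 1 that is not reported here and stays in the totals. Values per library were given for changed gene ends and heights, for day-only regions (in deposited lists up to 12 per day, by highest mean fold enrichment) and for 14 members chosen by name. From the adhesion list the genes with the most day-only regions were named. Alternatives were a stricter q, other distances and assignments, other overlaps, other scalings, a replicate block and each library left out.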

Additional observations from a re-analysis of the deposited data

How the results depend on the processing

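All values given here count member genes or regions unless said otherwise. With peaks of −log10 q of at least 5, day 1 only regions of the deposited lists numbered 1 and day 0 only regions of equal lists 6. Equal lists gave 6 members with a gene-end peak at day 0 and a distal ratio of 1.38. Where a peak had to cover 50% of its region, day 1 only regions of the deposited lists numbered 2. With at least 2 of 3 libraries against 0, day 0 only and day 1 only regions numbered 66 and 10 in deposited and 16 and 11 in equal lists. Ranking equal lists by fold enrichment gave 6 day 0 only regions. Scaling to the fragment total gave 0 higher and 0 lower regions by limma, and fold enrichment in place of height gave 1 lower. Leaving out each library in turn, the gene-end members ranged from 13 to 16 at day 0 and from 6 to 10 at day 1, and the distal ratio from 2.23 to 3.25. Day 0 only regions ranged from 42 to 57 in deposited and 10 to 14 in equal lists, and day 1 only regions from 4 to 10 and 7 to 17. Lower regions by height ranged from 2 to 10 and higher ones from 2 to 4. The highest of the day 1 gene-end, day 1 only and lower counts came without day 1 replicate 3. Where not stated otherwise, the cause of these shifts was not tested. Of 130 refits of the 12 single regions under alternatives, 118 kept direction and side of the threshold, 8 lost the call, 4 gained it and 0 reversed. Summits of a few fragments limit the day 1 values, since the median shared region had 13 in day 1 replicate 3.

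With the replicate number as a block, 3 regions were higher and 3 lower by limma, with the Itgb8 body region gained (adjusted p = 0.0485), and the distal ratio was 2.97 as a geometric mean of same-numbered pairs. Over all genes the block gave 729 higher and 633 lower regions. The deviations of same-numbered libraries correlated at -0.04, 0.05 and 0.01, and not every library correlated best with its own number. By their labels the samples share only a number. With 3 libraries a day, these correlations cannot show whether same-numbered libraries share a culture or batch.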
